A study of Mus musculus with 6 samples.

Results

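RNA of 7 genes for junction, selectin ligand and egress molecules was compared between CD74-/- and WT hematopoietic stem cells. These genes, Esam, Jam2, Jam3, Pecam1, Selplg, Cd47 and S1pr1, were chosen by name for what their proteins do at the cell surface, with earlier results of these data known but no threshold on a measured value. All 7 are among the 19846 genes of the table, each with a single row, and all 7 passed the filter on low values that left 14892 genes for testing. The cells were sorted CD34-/LSK cells (lineage-negative, Sca-1+, c-Kit+, CD34-; HSCs) from the bone marrow of untreated CD74-/- and WT C57BL/6 mice, which were 6 to 8 weeks old, and each library held RNA of 1000 cells. CD74-/- mice lack CD74, the MHC class II invariant chain and a receptor for the cytokine MIF, in all their cells. Each genotype has 3 mice and 3 libraries in the labels, and it was assumed that every library came from its own mouse. The study asked what the loss of CD74 does to stem cell number and maintenance, and the comparison asks whether RNA of these surface molecules differed between the genotypes.

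Stem cells are held in the bone marrow by contacts with the vessel wall and the stroma, and they leave it or return to it across the endothelium. ESAM, JAM-B (Jam2), JAM-C (Jam3) and PECAM-1 (Pecam1) are immunoglobulin superfamily proteins best known from endothelial junctions, where they bind a partner on the next cell or on a passing leukocyte. ESAM is also used as a surface marker of HSCs in the mouse, and JAM-B binds JAM-C. PSGL-1, the product of Selplg, carries sugars that selectins bind when a cell rolls along the vessel wall. CD47 is the signal that keeps macrophages from engulfing a cell, through their receptor SIRPα. S1P receptor 1 (S1pr1) senses sphingosine-1-phosphate, which is high in blood and lymph, and leads cells out of tissues.

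ESAM and the JAM proteins end in a short C-terminal motif that binds PDZ domains of scaffold proteins such as ZO-1, PAR-3 and MAGI-1. The last 30 coding bases of Esam, of F11r (JAM-A, the third junctional adhesion molecule beside JAM-B and JAM-C), of Jam2 and of Jam3 are shown because they encode this motif and show how like the coding sequences of these related genes are, whose reads have to be told apart. They come from GENCODE vM21 on GRCm38, run 5′ to 3′ on the coding strand and leave out the stop codon, and the capitals mark the last 9 bases, which encode the end of the C-terminal motif.
Esam: cctgcacagagtcaggctgggTCTCTTGTG
F11r: gaattcaaacagacctcgtcgTTCCTGGTG
Jam2: gatttcaagcacacaaaatccTTTATAATT
Jam3: gacttcagacacaaatcgtccTTTGTTATC
Position by position, Jam2 and Jam3 share 20 of these 30 bases, F11r and Jam3 share 19, and F11r and Jam2 share 17, while Esam shares 9 with F11r and 7 with Jam2 and with Jam3. No stretch of 50 bases in the transcripts of Esam, Jam2 or S1pr1 occurs in a transcript of another gene. For Pecam1, Selplg and Cd47 between 0.722% and 1.54% of such stretches do. For Jam3 the share is 29.3%, all with Gm48796, a gene on the opposite strand that covers 1159 bases of its exons. The libraries (SMART-Seq v4) do not keep the strand, so reads of the overlap cannot be given to either gene. Gm48796 averaged 1.79 normalized counts over the 6 libraries.

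A normalized count is the number of reads of a gene divided by the size factor of the library, and the reads in genes came to between 14390534 and 16198678 in each library. Cd74, the targeted gene, had 46.0, 72.0 and 72.8 normalized counts in the CD74-/- libraries, against 3287, 2459 and 3107 in the WT libraries (log2 fold change -5.53, limma adjusted p = 6.2e-05). All 22 genes of the stem cell marker list were tested, 18 of them with a negative log2 fold change. At an unadjusted p under 0.05 there was 1 lower (Sult1a1, -1.56) and 1 higher (Cd34, 0.59). The list also holds Cd34 and Flt3, which mark later progenitors and were among its positive genes (0.59 and 0.42). The sum of the list, Cd34 and Flt3 included, lay between 97088 and 144640 normalized counts in CD74-/- and between 103435 and 151886 in WT. Procr had 949 to 1138 in CD74-/- and 963 to 1316 in WT. Of the genes that mark later progenitors, Cd34 had 7097 to 11830 in CD74-/- and 5240 to 6834 in WT. Flt3 had 3006 to 3754 in CD74-/- and 2097 to 2853 in WT. In both genes all CD74-/- libraries lay above all WT libraries, as in 5.35% of tested genes. RNA of both was found in cells sorted as negative for CD34 protein. Summed neutrophil markers lay between 41558 and 170077 normalized counts in CD74-/- and between 173494 and 1015520 in WT, with WT replicate 1 the highest. Summed monocyte and macrophage markers lay between 9826 and 40376 in CD74-/- and between 30559 and 53282 in WT. Summed B cell markers lay between 6540 and 13028 in CD74-/- and between 10251 and 26296 in WT. Summed erythroid markers lay between 26040 and 39881 in CD74-/- and between 39898 and 60716 in WT. The largest single part of this sum was Car2, with 22933 to 37613 in CD74-/- and 20042 to 27332 in WT (log2 fold change 0.20). At an unadjusted p under 0.05, 12 of 16 tested B cell, 7 of 14 erythroid and 0 of 12 T and NK cell markers were lower. Over all tested genes 4.6% were lower. After adjustment limma called 1 B cell marker (Fcrla, log2 fold change -7.68) and 2 erythroid markers (Hba-a2, -5.05, and Hbb-bs, -5.24) lower.

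None of the 7 genes passed the test between the genotypes (limma on log2(normalized count + 1), Benjamini-Hochberg over 14892 genes, adjusted p under 0.05), where 0.0873% of all tested genes did. The same count of 0 was found with DESeq2, which called 0.756% of 19589 genes, with edgeR (0.0806%) and with limma-voom (0.0403%). At an unadjusted p under 0.05, 2 of 7 genes, Esam and Jam2, were lower in CD74-/- HSCs and 0 were higher, where 4.6% of all tested genes were lower and 3.14% higher. In Esam alone all CD74-/- libraries lay below all WT libraries, as in 7.47% of tested genes, and in Cd47 alone they all lay above, as in 5.35%. The median log2 fold change of the 7 genes was -0.09, against -0.03 over all tested genes, and 5 of the 7 were negative, against 52.3% of all tested genes. In bulk samples, fewer cells of a type and less RNA per cell cannot be told apart. A two-sided exact permutation test of 3 libraries against 3 cannot give a p under 0.1.

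**Figure D1:**
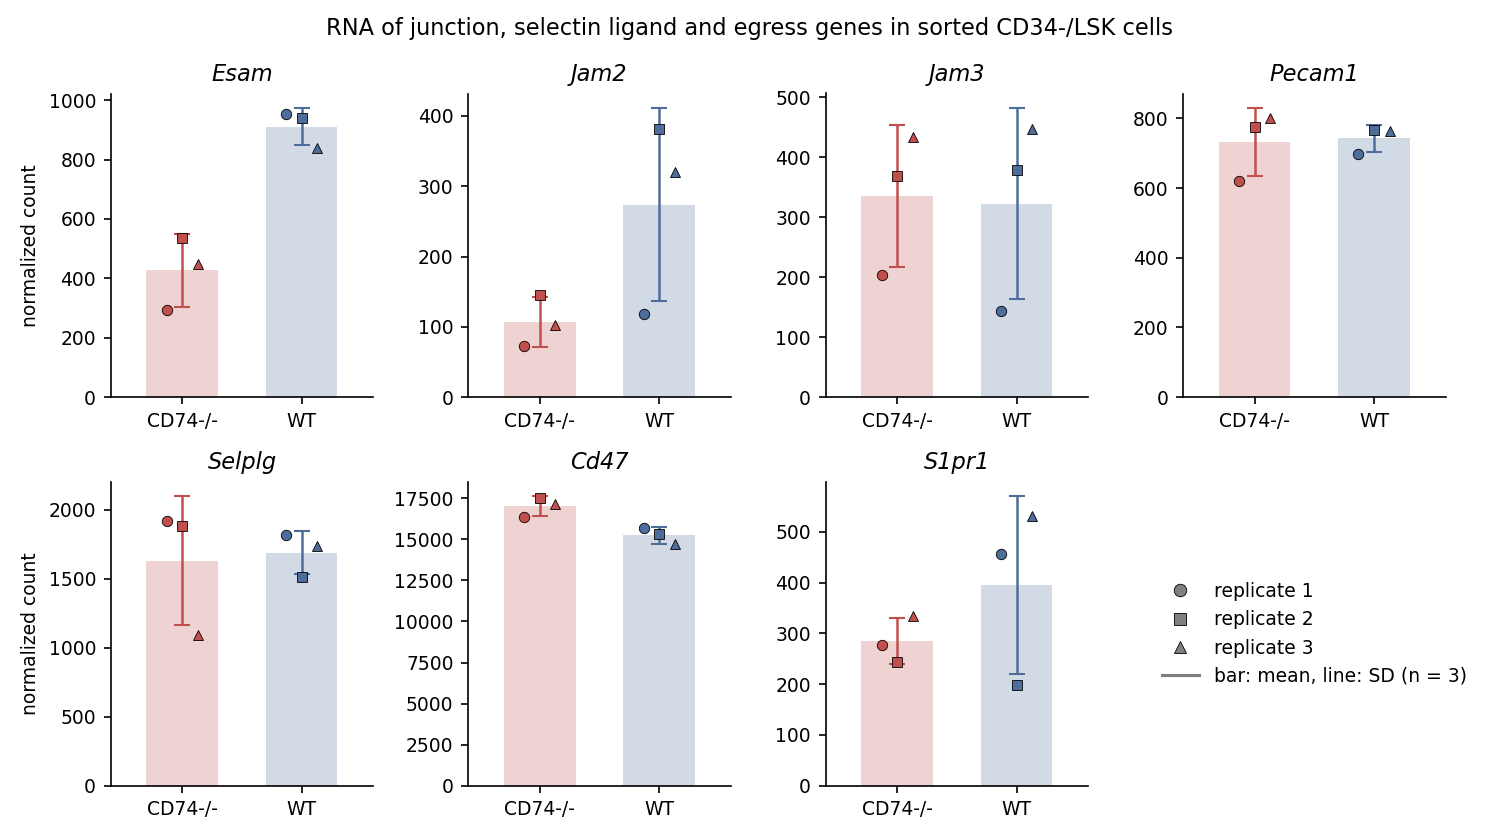
Normalized counts of the 7 genes in each library, with CD74-/- at the left and WT at the right of each panel. Points are libraries, bars the means of 3 libraries and lines the SD. The Esam points of CD74-/- (293 to 537) all lie below those of WT (839 to 954), and those of Cd47 (16359 to 17527) all lie above those of WT (14708 to 15686).

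Esam (ENSMUSG00000001946; chromosome 9, 37528078 to 37538319, plus strand, GRCm38), the endothelial cell-selective adhesion molecule, showed the clearest separation. It had 293, 537 and 449 normalized counts in the CD74-/- libraries, against 954, 941 and 839 in the WT libraries. The WT values are close together, the CD74-/- values are spread more widely, and the highest CD74-/- library stays below the lowest WT library. The means were 426.6 ± 123 in CD74-/- and 911 ± 62.6 in WT (SD, n = 3 each), a ratio of 0.468. Behind these values stand 300 to 530 reads in CD74-/- and 887 to 1050 reads in WT. This is a log2 fold change of -1.13 (95% confidence interval -1.81 to -0.46). Its limma unadjusted p was 0.00361, and its adjusted p was 0.467. The DESeq2 adjusted p was 0.0691, the lowest of all settings, and the highest was 0.963. In all 16 alternatives the log2 fold change stayed between -1.32 and -0.89, and the exact permutation test gave p = 0.1, the smallest possible.

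Since Esam is also an endothelial gene, RNA of endothelial cells was read beside it. Of 10 tested endothelial markers 3 (Kdr, Cd36 and Vwf) were lower in CD74-/- at an unadjusted p under 0.05 and 0 were higher. In all, 7 of the 10 were negative, and DESeq2 called 1 lower. The median log2 fold change of the 10 was -1.04, against -0.03 over all tested genes. The sum of the endothelial markers lay between 3627 and 5950 normalized counts in CD74-/- and between 4114 and 5664 in WT, so that the genotypes overlap. Cdh5, which encodes VE-cadherin, was at 0, 1.01 and 0 in CD74-/- and at 17.1, 0 and 2.84 in WT, far below Esam in every library. Kdr, a receptor for VEGF, had 9.78, 0 and 23.6 in CD74-/- and 95.2, 44.8 and 98.4 in WT. Ptprb, too low to be tested, was at 0 in all CD74-/- libraries and at 0, 11.65 and 7.57 in WT. Cd36 had 4.89, 0 and 3.07 in CD74-/- and 237, 52.0 and 72.8 in WT (log2 fold change -5.08). Vwf had 119, 178 and 438 in CD74-/- and 378, 436 and 616 in WT (-1.14), with overlap. Tie1, a receptor that HSCs also express, had 418, 424 and 625 in CD74-/- and 703, 590 and 820 in WT. Sox18 (-1.40), Cldn5 (-2.29) and Fabp4 (-0.94) were also negative. The tested markers that were not negative were Egfl7, Emcn and Ecscr (0.27). Egfl7 had 3294, 3005 and 1153 in CD74-/- and 1581, 2208 and 1733 in WT (log2 fold change 0.31). Emcn had 1180, 1705 and 1005 in CD74-/- and 628, 1726 and 1787 in WT (0.02). Egfl7 and Emcn have the highest mean counts of the list, so its sum follows them more than the other markers. The bulk libraries cannot tell whether endothelial cells or HSCs made their RNA. The part of endothelial RNA in the Esam difference was not tested.

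Jam2 (ENSMUSG00000053062; chromosome 16, 84774123 to 84825928, plus strand), which encodes JAM-B, had a mean difference of similar size and much more spread. It had 73.4, 145 and 102 normalized counts in CD74-/-, against 119, 382 and 321 in WT. WT replicate 1 lies among the CD74-/- libraries, and the other two WT libraries lie above all of them. The means were 107 ± 36.0 in CD74-/- and 274 ± 138 in WT (SD, n = 3 each), from 75 to 143 reads in CD74-/- and 111 to 426 reads in WT. The log2 fold change was -1.24 (95% confidence interval -2.42 to -0.05, limma unadjusted p = 0.0423, adjusted p = 0.630, exact permutation p = 0.2). Without WT replicate 1 it was -1.76, and without WT replicate 2 it was -0.92. Neither setting gave a call.

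Jam3 (ENSMUSG00000031990; chromosome 9, 27097384 to 27155421, minus strand), the binding partner of JAM-B, had 203, 369 and 433 normalized counts in CD74-/-, against 143, 378 and 448 in WT. In both genotypes replicate 1 was the lowest library, and the ranges overlap almost fully. Its log2 fold change was 0.14 (95% confidence interval -0.95 to 1.23, limma adjusted p = 0.957), which reaches from 0.518 to 2.34 times the WT level. Its direction turned without WT replicate 1 (-0.36), without CD74-/- replicate 3 (-0.08) and with library weights (-0.28). F11r, which encodes JAM-A, had 405, 788 and 538 normalized counts in CD74-/- and 460, 516 and 674 in WT (log2 fold change 0.03, limma adjusted p = 0.985), again with overlap. Its direction turned when CD74-/- replicate 2 was left out (-0.22).

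Within a library, a ratio of 2 genes does not depend on the size factor. Of the 21 ratios among the 7 genes, which were computed after the values had been seen, 5 did not overlap between the genotypes, 4 of them with Esam. Of single tested genes 7.47% were lower and 5.35% higher without overlap, and no such share was computed for ratios. Esam did not overlap by itself, so these 4 ratios restate its values and add no separate evidence. Ratios that share a gene are not independent. The remaining ratio, Jam2 to Jam3, was picked out because it did not overlap, so its values only describe these libraries. It was 0.361, 0.393 and 0.236 in CD74-/- and 0.828, 1.01 and 0.717 in WT. Both genes were low in WT replicate 1, and their ratio there was like that of the other WT libraries. The difference of the mean log2 ratio was -1.39 (two-sided exact permutation test, p = 0.1, the smallest possible), and between -1.53 and -1.16 with any 1 library left out. The ratio of Esam to Pecam1 was 0.472, 0.692 and 0.561 in CD74-/- and 1.36, 1.23 and 1.10 in WT (difference -1.11, p = 0.1 in the exact permutation test). The ratio of Esam to Jam2 was 4.0, 3.71 and 4.38 in CD74-/- and 8.03, 2.46 and 2.62 in WT, with overlap. With 3 libraries against 3, the exact permutation test cannot take any of the 21 ratios past a threshold of 0.05.

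**Figure D2:**
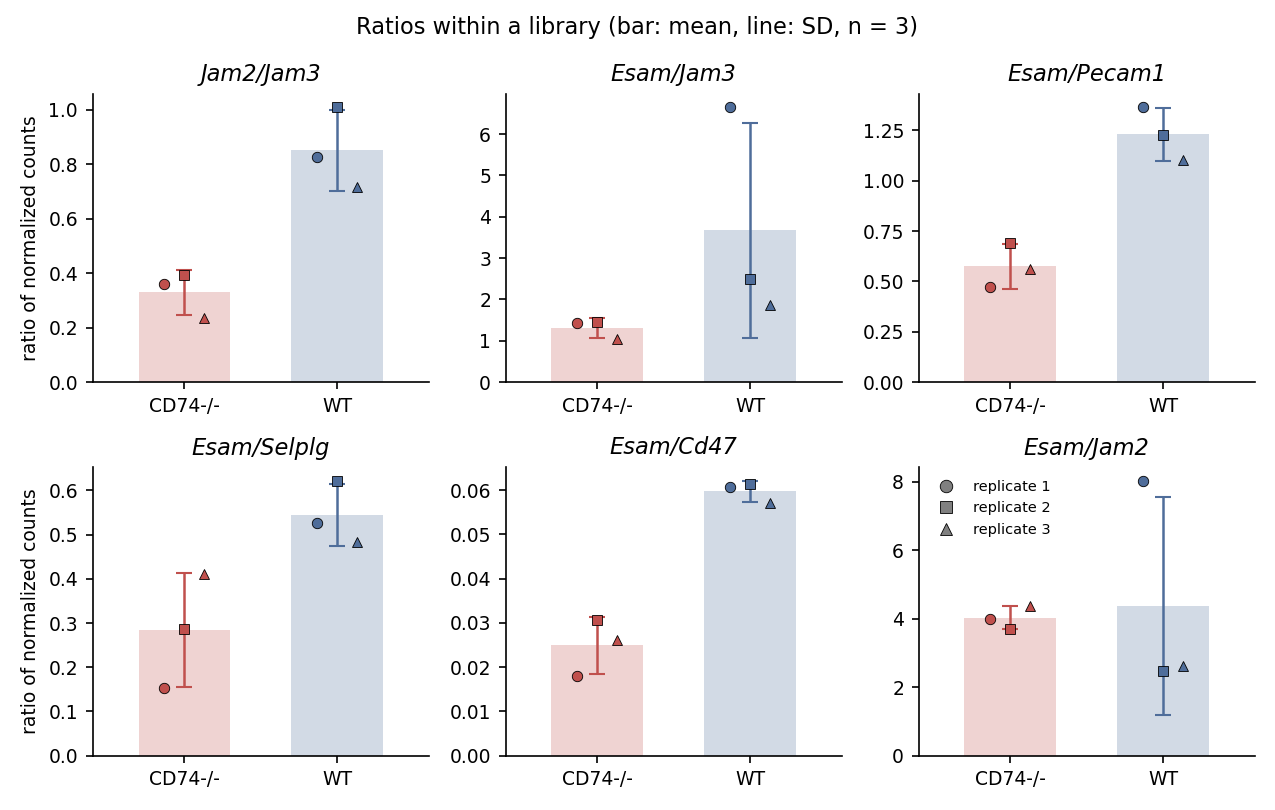
Ratios of normalized counts within a library for 6 of the 21 gene pairs, with CD74-/- at the left and WT at the right. Points are libraries, bars means and lines the SD of 3 libraries. The 5 ratios without overlap and Esam to Jam2 are shown. Jam2 to Jam3 lies between 0.236 and 0.393 in CD74-/- and between 0.717 and 1.01 in WT.

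Pecam1 (ENSMUSG00000020717; chromosome 11, 106654217 to 106750628, minus strand) encodes a homophilic adhesion molecule with inhibitory ITIM motifs, which stem cells express as well as endothelium, platelets and leukocytes. Its normalized counts were 621, 777 and 800 in CD74-/-, against 699, 767 and 763 in WT. The 2 genotypes overlap, and the means were 733 ± 97.3 in CD74-/- and 743 ± 38.1 in WT (SD, n = 3 each), which is a log2 fold change of -0.03 (95% confidence interval -0.59 to 0.54, limma adjusted p = 0.984). In folds this interval reaches from 0.664 to 1.45 times the WT level. The direction is not fixed, since the value was 0.09 without CD74-/- replicate 1.

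Selplg (ENSMUSG00000048163; chromosome 5, 113818536 to 113832644, minus strand), the gene of PSGL-1, had 1916, 1879 and 1092 normalized counts in CD74-/-, against 1815, 1512 and 1732 in WT. A pair of the CD74-/- libraries lies above all WT libraries and CD74-/- replicate 3 lies below them all. On the log2 scale the fold change was -0.09 (95% confidence interval -0.69 to 0.51, limma adjusted p = 0.948), and without CD74-/- replicate 3 it was 0.17. PSGL-1 binds selectins only when it is glycosylated, and 3 enzymes that act on it were read with it. Fut7, the fucosyltransferase, had 181 ± 18.4 normalized counts in CD74-/- and 267 ± 242 in WT. Gcnt1, which makes the core 2 branch, had 1369 ± 535 in CD74-/- and 1294 ± 330 in WT. St3gal4, a sialyltransferase, had 426 ± 238 in CD74-/- and 563 ± 150 in WT (SD, n = 3 each). For each the genotypes overlap, and limma adjusted p values were 0.763 to 0.981. The direction of Fut7 and of Gcnt1 turned with a single library left out.

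Cd47 (ENSMUSG00000055447; chromosome 16, 49800533 to 49915010, plus strand) was by far the most abundant of the 7 genes and ranked 70th of all genes in the table by mean normalized count. It had 16359, 17527 and 17163 normalized counts in CD74-/-, against 15686, 15319 and 14708 in WT. The lowest CD74-/- library lies above the highest WT library. The means were 17016 ± 598 in CD74-/- and 15238 ± 494 in WT (SD, n = 3 each), a ratio of 1.12. The log2 fold change was 0.16 (95% confidence interval -0.21 to 0.53, limma adjusted p = 0.817, exact permutation p = 0.1, the smallest possible), and between 0.13 and 0.19 in all 16 alternatives. The SD within a genotype was 0.049 on the log2 scale, smaller than in all but 0.0873% of tested genes, where the median gene had 0.524. The limma interval is wider than the 6 libraries alone would give, because limma draws the spread of each gene towards that of genes of like abundance. With TMM factors in place of those of DESeq2 the value was 0.18.

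S1pr1 (ENSMUSG00000045092; chromosome 3, 115710433 to 115715072, minus strand) had 277, 244 and 335 normalized counts in CD74-/-, against 457, 198 and 531 in WT. WT replicate 2 was the lowest of all libraries and the remaining pair of WT libraries the highest, so that the CD74-/- values lie inside the WT range. The means were 285 ± 46.0 in CD74-/- and 395 ± 175 in WT (SD, n = 3 each). The log2 fold change was -0.36 (95% confidence interval -1.29 to 0.57, limma adjusted p = 0.843). It was -0.80 without WT replicate 2 and -0.09 without WT replicate 3, with no call in either setting.

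**Figure D3:**
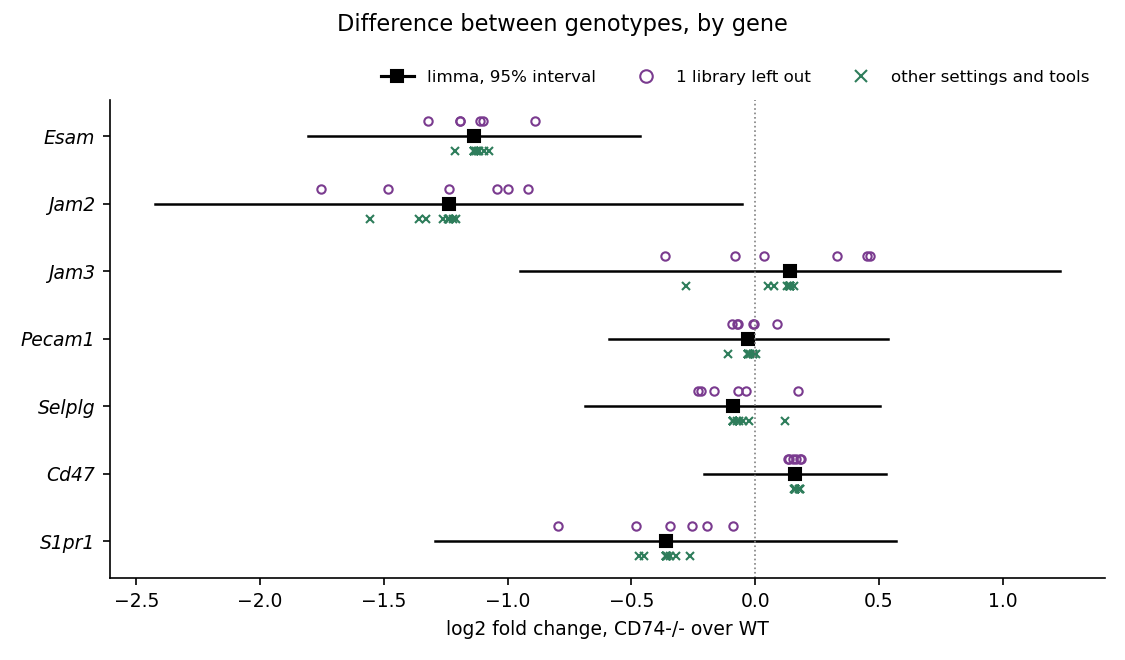
Log2 fold change of each of the 7 genes, CD74-/- over WT. Squares and lines are the limma value and its 95% confidence interval, open circles the values with 1 library left out, and crosses those of the other settings and tools. Esam and Jam2 stay below 0 throughout, Cd47 stays between 0.13 and 0.19, and Jam3, Pecam1 and Selplg lie on both sides of 0.

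Per length, the levels of the 7 genes can be set side by side. In CD74-/- HSCs the order was Cd47 with 2711 ± 95.3 normalized counts per kilobase of merged exons, Selplg with 381 ± 109, Esam with 149 ± 43.1, Pecam1 with 118 ± 15.6, Jam3 with 105 ± 37.1, S1pr1 with 93.7 ± 15.1 and Jam2 with 17.7 ± 5.96. In WT HSCs it was Cd47 with 2428 ± 78.7, Selplg with 395 ± 36.6, Esam with 318 ± 21.9, S1pr1 with 130 ± 57.4, Pecam1 with 119 ± 6.12, Jam3 with 101 ± 49.8 and Jam2 with 45.3 ± 22.8 (SD, n = 3 each). Cd47 at the top and Jam2 at the bottom stand apart from their neighbours by more than the larger SD of each pair, in WT only just so for Jam2 and Jam3. By the same measure S1pr1, Pecam1 and Jam3 do not differ in WT. In CD74-/- none of the neighbours from Esam through Pecam1 and Jam3 to S1pr1 differ. Pecam1 lies above S1pr1 there by more than the larger SD. The Jam3 level may be too low, because 1159 bases of its exons overlap Gm48796 and were kept in its length. Its place beside Pecam1 and S1pr1 is therefore not settled. F11r, with 217 ± 73.0 in CD74-/- and 207 ± 41.6 in WT, was the most abundant of the JAM-A, B, C group. Over the length of the longest transcript the order was the same in CD74-/-, and in WT Pecam1, Jam3 and S1pr1 changed places.

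**Figure D4:**
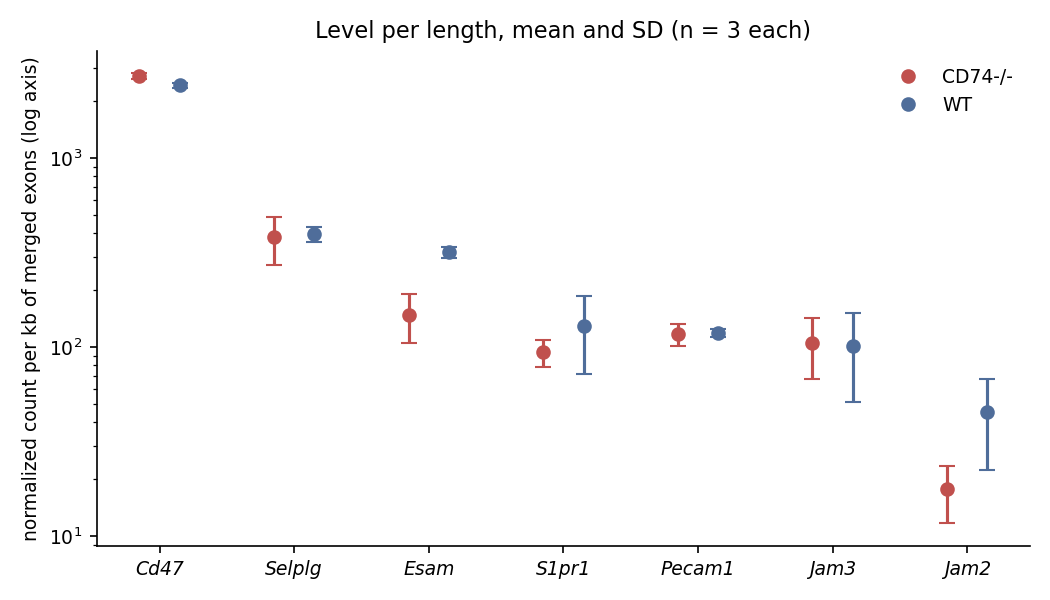
Normalized count per kilobase of merged exons on a log axis, mean and SD of 3 libraries, with CD74-/- at the left and WT at the right for each gene. The level of Jam3 may be too low, because part of its exons overlaps Gm48796. Cd47 lies at 2711 in CD74-/- and 2428 in WT, Jam2 at 17.7 in CD74-/- and 45.3 in WT, and Esam at 149 in CD74-/- and 318 in WT.

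Within a genotype the 7 genes differed widely in how steady they were. The SD within a genotype on the log2 scale was 0.049 for Cd47, 0.151 for Pecam1, 0.324 for Esam, 0.339 for Selplg, 0.564 for S1pr1, 0.726 for Jam2 and 0.744 for Jam3. For 4 of the 7 it was below the median of tested genes. Counting alone gives a CV of 0.761% to 11.5% for a single value of these genes, the highest for the 75 reads of Jam2 in CD74-/- replicate 1. As a description over the 6 libraries, which share their depth and genotype, Pearson's r of log2 values was 0.77 between Jam3 and Pecam1, 0.76 between Esam and Jam2 and -0.67 between Jam2 and Cd47. Across 10587 genes with a mean of at least 50, the 2 genes most like Esam over the 6 libraries were Lurap1 (r = 0.989) and Nudcd3 (r = 0.989). They were Dennd1c (0.993) and Smyd5 (0.985) for Jam2, and Rprd1b (0.995) and Fkbp7 (0.991) for Jam3. For Pecam1 they were Fam160a2 (0.990) and Uba7 (0.982), for Selplg Mpnd (0.994) and Wdr70 (0.994), for Cd47 Plxna3 (0.990) and Gpatch2l (0.986), and for S1pr1 Tor3a (0.979) and Map1s (0.976). These are the highest of many values over only 6 points, and describe these libraries alone.

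The partners of the 7 genes were read as lists, from which no gene was called by limma. Of 26 tested junction proteins, 3 were lower in CD74-/- at an unadjusted p under 0.05 and 0 were higher, with a median log2 fold change of -0.50. Over all tested genes, 4.6% were lower and 3.14% higher at that threshold and the median was -0.03, which holds as the background of every list here. These were Magi1, a scaffold with PDZ domains, with 158, 136 and 281 normalized counts in CD74-/- and 349, 326 and 482 in WT (log2 fold change -1.06, limma adjusted p = 0.583), and the JAM-like proteins Jaml and Cxadr. Jaml, found on myeloid cells, had 22.5, 0 and 1.02 in CD74-/- and 131, 43.0 and 41.6 in WT. Cxadr, which binds JAML, had 26.4, 17.2 and 0 in CD74-/- and 83.5, 38.5 and 121 in WT. In all 3, which were picked by their p, the genotypes do not overlap. Of the whole list 4 of 26 genes were lower without overlap, against 7.47% of all tested genes. In Jaml and Cxadr a CD74-/- library is at 0. Without WT replicate 1 the count was 1 lower, as it was without WT replicate 3, and without CD74-/- replicate 3 it was 7 lower and 1 higher. The median was -0.32 without CD74-/- replicate 2. In genes with a CD74-/- library at 0 the limma fold change depends on the pseudocount, and in Jaml it was -4.11 where DESeq2 gave -3.19.

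Of 13 tested PECAM-1 partners and ITIM signalling genes, 3 had lower levels at an unadjusted p under 0.05 and 0 were higher, with a median of -0.32. Without CD74-/- replicate 3 the count was 5 lower, and without WT replicate 1 the median was -0.20. Cd38, a ligand of PECAM-1, had 203, 136 and 126 normalized counts in CD74-/- and 592, 165 and 392 in WT (log2 fold change -1.15, limma adjusted p = 0.630), with overlap. Cd177, a neutrophil ligand of PECAM-1, had 160, 0 and 36.9 in CD74-/- and 915, 143 and 214 in WT. Pirb, an inhibitory receptor with ITIM motifs, had 98.8, 40.6 and 70.7 in CD74-/- and 595, 150 and 334 in WT, without overlap (log2 fold change -2.22, limma adjusted p = 0.453, DESeq2 adjusted p = 0.0108). All 3 were highest in WT replicate 1, the library with the highest sum of neutrophil markers, and the part of mature cells in these differences was not tested. The phosphatases and kinases of the list, such as Ptpn6 (-0.32), Ptpn11 (-0.66), Lyn (-0.30) and Inpp5d (-0.22), gave log2 fold changes of less than 1 in size.

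Of 25 tested genes for selectins, selectin ligands and their glycosylation, 0 were lower and 1 was higher at an unadjusted p under 0.05, with a median of -0.17. The gene that was higher is Cd34, a sialomucin whose protein was used in the sort. It had 11830, 9672 and 7097 normalized counts in CD74-/- and 6611, 6834 and 5240 in WT, without overlap (log2 fold change 0.59, limma adjusted p = 0.588). With any 1 of CD74-/- replicate 1, CD74-/- replicate 2 or WT replicate 3 left out no gene of the list was higher at that threshold, while without CD74-/- replicate 3 there were 5 lower and 3 higher and the median was -0.07. A single gene was lower without WT replicate 2 and without CD74-/- replicate 1. Selp, the gene of P-selectin, had 29.4, 62.9 and 132 in CD74-/- and 315, 80.6 and 118 in WT (log2 fold change -1.19, limma adjusted p = 0.700). The genotypes overlap, and Sele was not analysed here. Platelets also carry Selp, and 4 of 14 tested megakaryocyte and platelet markers were lower in CD74-/- at an unadjusted p under 0.05, while their sum lay between 3677 and 5503 in CD74-/- and between 4641 and 7029 in WT. The part of platelet RNA was not tested.

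Of 14 tested genes of the CD47 axis, 1 was lower at an unadjusted p under 0.05 and 0 were higher, with a median of -0.74. Sirpa, the receptor of CD47 on myeloid cells, had 585, 375 and 393 normalized counts in CD74-/- and 1092, 598 and 640 in WT, without overlap (log2 fold change -0.76, limma adjusted p = 0.639). Thbs1, the gene of the CD47 ligand thrombospondin-1, had 18.6, 0 and 159 in CD74-/- and 205, 15.2 and 65.3 in WT, with overlap (limma adjusted p = 0.759). Monocyte and macrophage markers, 8 of 15 lower in CD74-/- at an unadjusted p under 0.05, moved the same way as Sirpa, and their part in it was not tested. The count of 1 lower became 0 with TMM factors, library weights, edgeR and limma-voom, and without WT replicate 1, WT replicate 3 or CD74-/- replicate 2. It became 2 without CD74-/- replicate 1, and 2 genes were higher once CD74-/- replicate 3 was left out. The median was -0.35 among genes with a mean of at least 50, -0.32 without WT replicate 1 and -0.36 without CD74-/- replicate 2.

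Of 19 tested genes for S1P receptors, metabolism and transport, 3 were lower at an unadjusted p under 0.05 and 0 were higher, with a median of -0.28. The count was 1 lower without WT replicate 1, WT replicate 3 or CD74-/- replicate 2. Leaving out CD74-/- replicate 3 gave 1 higher. With CD74-/- replicate 1 left out the median was -0.07, and with CD74-/- replicate 2 left out it was -0.15. The other S1P receptors, of which S1pr5 was not analysed here, were lower in all CD74-/- libraries than in any WT library. This separation was seen in 5 of the 19 genes of the list and in 7.47% of all tested genes. S1pr2 had 69.5, 40.6 and 135 normalized counts in CD74-/- and 211, 135.3 and 252 in WT (log2 fold change -1.40, limma adjusted p = 0.594). In S1pr2 the highest CD74-/- library and the lowest WT library, 135.26 and 135.28, nearly touch. S1pr3 had 45.0, 15.2 and 28.7 in CD74-/- and 113, 57.3 and 93.7 in WT (log2 fold change -1.61, limma adjusted p = 0.615). S1pr4, the receptor of lymphoid and myeloid cells, had 142, 93.3 and 158 in CD74-/- and 249, 227 and 213 in WT (log2 fold change -0.84, limma adjusted p = 0.668).

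Among the enzymes, the sphingosine kinase Sphk1 had 6.85, 1.01 and 0 normalized counts in CD74-/-, against 69.6, 44.8 and 47.3 in WT (log2 fold change -4.42, limma unadjusted p = 0.00364, adjusted p = 0.467, DESeq2 adjusted p = 0.0688). The kinase Sphk2 had 76.5 ± 18.8 in CD74-/- and 138 ± 56.6 in WT, and the S1P lyase Sgpl1 had 522 ± 204 in CD74-/- and 493 ± 76.0 in WT (SD, n = 3 each), with overlap in both. Of the exporters, Spns2 had 1551, 1477 and 1569 in CD74-/- and 1949, 2087 and 1964 in WT, a tight separation without overlap (log2 fold change -0.38, limma adjusted p = 0.687, exact permutation p = 0.1, the smallest possible). Mfsd2b, the exporter of red cells and platelets, had 178 ± 138 in CD74-/- and 175 ± 142 in WT (SD, n = 3 each). The direction of Sgpl1 and of Mfsd2b turned with a single library left out.

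Of 12 tested genes known to control S1pr1 or to act on its protein, 4 were lower at an unadjusted p under 0.05 and 0 were higher, 11 were negative, and the median was -0.58. The count was 1 lower without WT replicate 1 or WT replicate 3, 2 lower without WT replicate 2 or CD74-/- replicate 2 and with limma-voom, and without CD74-/- replicate 3 there was 1 higher. Klf2, the transcription factor that drives S1pr1 in lymphocytes, had 26.4, 15.2 and 40.0 normalized counts in CD74-/- and 339, 111 and 143 in WT, without overlap (log2 fold change -2.75, limma adjusted p = 0.337, DESeq2 adjusted p = 0.00487). Klf4 had 6.85, 0 and 2.05 in CD74-/- and 87.8, 14.3 and 101 in WT (log2 fold change -4.17, limma adjusted p = 0.517, DESeq2 adjusted p = 0.0461). Grk2, the kinase that internalizes the receptor, had 969, 679 and 927 in CD74-/- and 1718, 1166 and 1135 in WT (log2 fold change -0.63, limma adjusted p = 0.630). Arrb1, a β-arrestin, had 345, 225 and 483 in CD74-/- and 704, 520 and 546 in WT (log2 fold change -0.80, limma adjusted p = 0.630). Neither Grk2 nor Arrb1 overlapped between the genotypes. Foxo1 had 425 ± 231 in CD74-/- and 488 ± 74.5 in WT (SD, n = 3 each), with overlap.

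Cd69, whose protein draws S1P receptor 1 from the cell surface, was the positive one of these 12. It had 1960, 2211 and 299 normalized counts in CD74-/-, against 449, 667 and 528 in WT. A pair of CD74-/- libraries lies far above all WT libraries and CD74-/- replicate 3 lies below them. The log2 fold change was 1.01 (95% confidence interval -0.41 to 2.43, limma adjusted p = 0.717). Without CD74-/- replicate 3 it was 1.94, with a limma adjusted p of 0.0331, so that 1 library decides this call.

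Of 25 tested retention and egress receptors and their signalling genes, 1 was lower at an unadjusted p under 0.05 and 0 were higher, with a median of -0.19. The count was 0 lower without WT replicate 3 or CD74-/- replicate 1, 3 lower without WT replicate 2, 2 lower without CD74-/- replicate 2, and 6 lower and 5 higher without CD74-/- replicate 3. Without WT replicate 1 the median was -0.06. With all libraries the lower gene was Gpr183, the oxysterol receptor that guides lymphocytes, with 0, 14.2 and 9.22 normalized counts in CD74-/- and 32.1, 32.2 and 148 in WT. Cxcr4, the receptor for CXCL12 that holds HSCs in the bone marrow, had 265, 174 and 214 in CD74-/- and 425, 164 and 172 in WT (log2 fold change -0.09, limma adjusted p = 0.970), with overlap. Its direction turned without WT replicate 1.

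**Figure D5:**
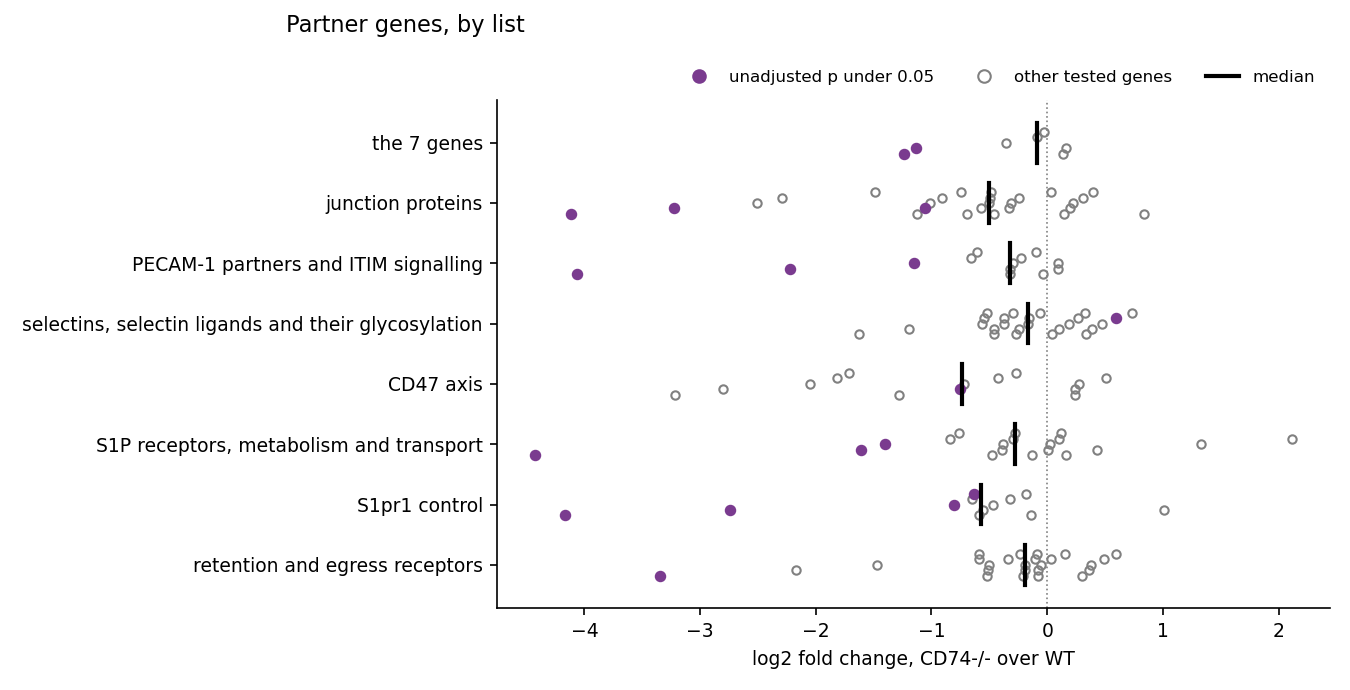
Log2 fold change, CD74-/- over WT, of each tested gene in the lists of partners, with 1 point a gene. Filled points have an unadjusted p under 0.05 from limma, none of which is under 0.05 after adjustment, and black lines are medians. The medians lie between -0.74 for the CD47 axis and -0.09 for the 7 genes.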

How the data were processed

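RNA of sorted CD34-/LSK cells was measured in 6 libraries (SMART-Seq v4, single-end reads, HiSeq2500). The authors trimmed reads with cutadapt, aligned them with STAR 2.4.2a (version from the submitters' processing notes) to GRCm38, took genes from Ensembl release 92, counted their reads with HTSeq and divided the counts by DESeq2 size factors. The deposited signal is this normalized count. Each library has a step, the value of 1 read, and 101059 of 101059 values above 0 (100.0%) were whole numbers of steps within 0.006, so reads were recovered. From them, DESeq2 called 148 genes, edgeR 12 and limma-voom 6, where limma called 13. These count tests are alternatives. A further deposited file, of thresholds, was not used.

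Genotypes were compared unpaired with limma with trend on log2(normalized count + 1), which can understate the change of low genes and overstate it where a library is at or near 0, for genes with a mean of at least 10. Software was DESeq2 1.42.0 (study's settings), edgeR 4.0.16 and limma 3.58.1 in R 4.3.3, with matplotlib 3.10.9, scipy 1.17.1, pandas 2.3.3 and numpy 2.4.6 in Python 3.11.15. The fits were tested on simulated data. The 7 genes, the lists and the tests were chosen with earlier results of these data known. Named genes are the 7, up to 4 of each list with the smallest unadjusted p under 0.05, direct partners (1 is not reported here), and the 2 most correlated genes of each. Marker genes and other list members were named after their values had been seen. Lengths and positions are from GENCODE vM21. Separate mice are assumed, and reads carry no molecular identifiers, so counting errors cover counting only.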

Additional observations from a re-analysis of the deposited data

How the results depend on the processing

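Alternatives were pseudocounts of 0.5 and 5, no filter, a mean of at least 50, TMM factors, the replicate block, library weights, edgeR, DESeq2, limma-voom and each library left out. None of the 7 genes was called under any of them. Over all genes, 7 were lower and 6 higher with limma, against 21 lower with the replicate block, 14 lower with library weights, 99 lower and 49 higher with DESeq2, and 3 lower and 3 higher with limma-voom. With 1 library left out, 1 (without WT replicate 1) to 34 (without CD74-/- replicate 1) were lower and 5 to 23 (without CD74-/- replicate 3) higher. Libraries with the same number correlated by 0.116, 0.0716 and 0.0193 in their deviations, and those with different numbers by -0.111 to 0.0534. Each CD74-/- library correlated best with the WT library of its own number, while WT replicate 3 correlated best with CD74-/- replicate 2. These small values do not settle whether the numbers pair the libraries. Of 112 values of the 7 genes 7 turned. With library weights Jam3 was -0.28 and Selplg 0.12, and with edgeR Pecam1 was 0.00196. With 1 library left out, the lowest and highest values were -0.36 and 0.46 for Jam3, -0.095 and 0.087 for Pecam1, and -0.23 and 0.17 for Selplg. Among partners, library weights gave -0.038 for F11r, 0.18 for Fut7, -0.26 for Gcnt1, -0.21 for Sgpl1, -0.034 for Mfsd2b and 0.16 for Cxcr4. Leaving out 1 library gave -0.22 to 0.26 for F11r, -0.75 to 0.55 for Fut7, -0.25 to 0.30 for Gcnt1, -0.27 to 0.26 for Sgpl1, -0.59 to 0.63 for Mfsd2b and -0.33 to 0.35 for Cxcr4. The cause was not tested. With 3 libraries a genotype, only differences well beyond the spread can be called.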
